A study of Mus musculus with 3 samples.

Results

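In intratumoral pmel T cells, 2845 of 28452 cells were set apart by the share of their UMIs that came from *Mt1*, *Mt2* and *Il1r2*. UMIs are molecular barcodes that count captured RNA molecules. The score of a cell was its summed UMIs of these 3 genes over its total UMIs, and the 10% of pooled cells with the highest score are called members here. Cells entered the pool with 2000 to 120000 UMIs and at most 20% of UMIs from mitochondrial genes. Because measured values of *Mt1*, *Mt2* and *Il1r2* chose the members, the levels of these genes and the share of members in each library are descriptions with no test. The score cuts through a continuous range of cells and does not define a cell type.

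pmel T cells are TCR transgenic CD8+ T cells that recognize the melanoma antigen gp100. They were activated with gp100 peptide and cytokine, transferred into irradiated C57BL/6 mice with subcutaneous B16F10 melanoma, and sorted from tumors as live Thy1.1+CD8+ cells on day 18 after tumor injection, with 1 droplet-based 3′ library for each of 3 treatments of the low dose regimen. In the sIL-2 library, cells were preconditioned with super IL-2, a variant that binds IL-2Rβ tightly, and the mice then received it as well. In the IL-2/21-Trikine library, super IL-2 fused to a binder of IL-21Rα that does not signal by itself was used in both steps, and in the sIL-2 + IL-21 library, both cytokines were used for preconditioning, while the methods give the same *in vivo* cytokine as in the sIL-2 group. Values of the libraries are always given in this order. The number of mice behind a library is not given in the sources used here, so spread between mice cannot be told apart from the treatments. No untreated library was analysed here, and a single T cell receptor and tumor line limit these cells as a model.

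Metallothioneins are small cysteine-rich proteins that bind zinc and copper. Their genes are induced through metal response elements by the zinc-sensing factor MTF1, and also respond to hypoxia, oxidants and glucocorticoids. *Il1r2* encodes a receptor that binds IL-1 without signaling and so acts as a decoy. In mouse melanoma, metallothionein expression is known from dysfunctional tumor-infiltrating CD8+ T cells.

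The promoters of the 3 score genes are shown because they carry the short motifs that metal-responsive and hypoxia-responsive factors are known to use. Each sequence holds the 250 bases before the transcription start used in the RefSeq promoter table of GRCm38.p6, all on the plus strand. They lie at chr8:94178839-94179088 for *Mt1*, chr8:94172368-94172617 for *Mt2* and chr1:40085843-40086092 for *Il1r2*. In the RefSeq gene table, *Mt2* spans 94172618 to 94173567 and *Mt1* spans 94178883 to 94180327 on chromosome 8, so most of the *Mt1* stretch lies inside the annotated gene, while the *Mt2* stretch ends directly before its gene. The *Il1r2* stretch lies within the annotated gene, which spans 40084692 to 40125230 on chromosome 1. Capitals mark metal response element cores (TGCACNC or TGCGCNC) in *Mt1* and *Mt2* and hypoxia response cores (ACGTG or GCGTG) in *Il1r2*, on either strand.
Mt1: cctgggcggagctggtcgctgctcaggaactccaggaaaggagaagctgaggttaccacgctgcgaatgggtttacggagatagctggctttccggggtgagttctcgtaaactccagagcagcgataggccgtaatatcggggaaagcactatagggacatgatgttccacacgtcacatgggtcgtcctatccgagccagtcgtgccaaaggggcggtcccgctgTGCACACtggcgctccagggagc
Mt2: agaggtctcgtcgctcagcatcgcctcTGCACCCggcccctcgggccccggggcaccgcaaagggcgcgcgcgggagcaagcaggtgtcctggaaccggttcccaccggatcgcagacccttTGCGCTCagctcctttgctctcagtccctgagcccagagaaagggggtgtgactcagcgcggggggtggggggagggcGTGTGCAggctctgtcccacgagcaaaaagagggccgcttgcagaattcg
Il1r2: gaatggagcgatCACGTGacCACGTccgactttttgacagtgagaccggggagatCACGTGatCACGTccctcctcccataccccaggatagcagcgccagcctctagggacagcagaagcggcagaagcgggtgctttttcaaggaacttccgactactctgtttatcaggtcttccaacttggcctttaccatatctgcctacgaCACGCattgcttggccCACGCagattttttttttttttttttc

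Motifs were counted on both strands in windows of 300 bases that reach past the start, with overlapping matches merged. The *Mt1* window held 3 metal response element cores and the *Mt2* window 4, while the *Il1r2* window held 0. Among 32851 promoter windows, 25.7% held such a core, 1.31% held 3 or more, and 0.295% held 4 or more. Hypoxia response cores numbered 7 in *Il1r2* and 2 in each metallothionein gene, against 43.8% of windows with any and 0.271% with 6 or more. An antioxidant response core (TGACNNNGC) was found in *Mt2* alone among the 3, and in 12.4% of all windows. Any match was more frequent in the 12308 windows of genes tested below but not called. There, 34.96% held a metal core, 60.63% a hypoxia core and 14.35% an antioxidant core. These matches describe letters and are not binding sites.

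Most of the score came from the metallothioneins. In members, *Mt1* gave 63.3% of score UMIs, *Mt2* 34.1% and *Il1r2* 2.56%. The *Mt1* level in members was 1760, 1971 and 2517 CPM (UMI counts scaled to a common total for every sum of cells), against 104.5, 100.9 and 224.2 CPM in the other cells of the same libraries. The *Mt2* level was 1048, 936.5 and 1360 CPM in members and 56.1, 47.8 and 106.4 CPM in the other cells. Both metallothionein genes were thus highest in the sIL-2 + IL-21 library among members and among the other cells alike. The *Il1r2* level was 71.4, 45.5 and 107 CPM in members and 16.3, 7.76 and 37.8 CPM in the other cells, again highest with sIL-2 + IL-21 and lowest with IL-2/21-Trikine.

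The members differed in how the score was made up. The ratio of summed *Mt1* to *Mt2* UMIs lay between 1.68 and 2.10 in the members of the 3 libraries and between 1.86 and 2.11 in the other cells. All but 10 members carried *Mt1* UMIs and all but 31 carried *Mt2* UMIs, but 1322 members carried no *Il1r2* UMI. After each cell was thinned to 2000 UMIs, *Il1r2* was seen in 9.93%, 8.10% and 15.8% of members and in 2.19%, 1.09% and 4.84% of the other cells. No sorted population known to lack *Il1r2* was at hand, so the part of free RNA in these shares was not tested.

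The score was continuous across the limit between members and other cells. The lowest member had a score of 1099 CPM and the highest other cell 1098. Within 10% of the limit lay 210 members above it and 293 other cells below it, and 31.5% of members had less than 1.5 times the limit. The median score was 2300 CPM in members and 75.3 CPM in the other cells, the highest score was 48374 CPM, and 10941 cells of the pool had none of the 3 genes. Members thus span a wide range of metallothionein levels.

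The sIL-2 + IL-21 library supplied 76.6% of the members, the IL-2/21-Trikine library 13.9% and the sIL-2 library 9.56%. Members made up 3.63% of cells in the sIL-2 library (272 of 7494, exact 95% interval 3.22 to 4.08%). They made up 3.43% of the IL-2/21-Trikine cells (395 of 11524, 3.10 to 3.78%) but 23.1% of the cells given both cytokines (2178 of 9434, 22.2 to 24.0%). The share with sIL-2 + IL-21 was 6.36 times that with sIL-2 (95% interval 5.63 to 7.19), and the IL-2/21-Trikine share stood at 0.944 times the sIL-2 share (0.8115 to 1.099). These intervals cover counting error only and carry no spread between mice or libraries. The size of the excess with sIL-2 + IL-21 depended on where the score was cut, from 3.86 times sIL-2 in the top 20% to 8.998 times in the top 5%, and it was 4.02 times once the most cycling cells were left out.

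**Figure D1:**
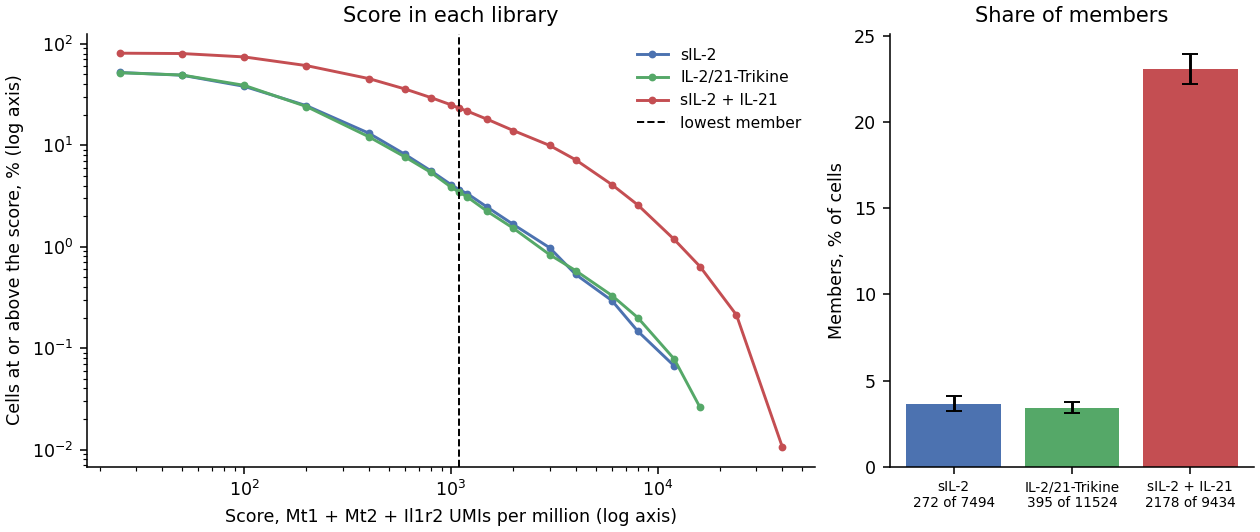
Left, percent of cells in each library (log axis) at or above a given score in CPM of summed *Mt1*, *Mt2* and *Il1r2* (log axis), with the lowest member at the dashed line. Right, members as percent of the cells of each library with exact 95% intervals. The curves of sIL-2 and IL-2/21-Trikine lie close together, and the sIL-2 + IL-21 curve lies above both throughout.

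The whole distribution was shifted with sIL-2 + IL-21, not its upper end alone. The median score of all cells in the pool was 43.9, 43.6 and 325.4 CPM. With every cell thinned to 2000 UMIs, 21.4%, 21.0% and 50.8% of cells carried any score UMI, at means of 0.450, 0.433 and 2.32 UMIs per cell. The sIL-2 + IL-21 library was thus highest at equal depth as well.

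When 1 part of the score was left out of the choice, its genes were still higher in the chosen cells of all 3 libraries. Cells chosen as the top 10% by *Mt1* and *Mt2* alone had 51.1, 37.9 and 90.4 CPM of *Il1r2*, against 17.6, 8.10 and 46.4 CPM in the other cells. The log2 ratios were 1.54, 2.23 and 0.96, with a mean of 1.58 ± 0.63 (SD, n = 3 libraries). Cells chosen by *Il1r2* alone had 719, 972 and 2437 CPM of summed *Mt1* and *Mt2*, against 281, 249 and 1208 CPM, a mean log2 ratio of 1.45 ± 0.48 (SD, n = 3 libraries). Chosen on counts thinned to 2000 UMIs, where 241, 942 and 629 of the chosen cells carried no *Il1r2* UMI, the mean was 0.669. With the other cells reweighted to the UMI bins of the chosen cells, the mean log2 ratios were 1.235 for *Il1r2* and 1.101 for *Mt1* and *Mt2*. With sIL-2 + IL-21 alone they were then 0.68 and 0.71. Within members, the summed *Mt1* and *Mt2* share and the *Il1r2* share had a Spearman correlation of -0.02.

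Members carried the markers of the sorted cells. *Cd3e* stood at 577, 479 and 484 CPM in members and 734, 626 and 664 CPM in the other cells, and *Cd8a* at 260.3, 238.0 and 170.8 CPM against 379.1, 317.2 and 265.1 CPM (CPM here and below is taken without the score genes). Of 12 T cell identity genes, 0 were called higher and 0 lower by the test described below, against 4.35% and 5.61% of all genes tested, with a median log2 fold change of -0.28 (-0.17 with the reweighting described below), and the most abundant of them in members was *Trbc2*. Without the IL-2/21-Trikine library 3 of the 12 were called lower, as were 3 when total UMIs replaced the TMM factors (trimmed mean scaling). Members were larger in RNA content, with median UMIs per cell of 27100, 18909 and 24062 against 13012, 11430 and 12248, and the median mitochondrial share was 1.27%, 1.13% and 1.28% against 1.27%, 1.33% and 1.37%. Counts with the other cells reweighted to the UMI bins of the members are therefore given below for each list whose calls they changed.

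Markers of other cell types had a median of 0 UMIs per member for each list, but a larger share of members than of other cells carried myeloid or melanoma UMIs. Cells with 3 or more myeloid UMIs were 13.97%, 1.52% and 2.20% of members and 2.30%, 0.926% and 1.32% of the other cells, so the excess was largest with sIL-2. *Cd14*, a monocyte marker, was seen in 11.4%, 2.28% and 5.28% of members and in 1.93%, 0.746% and 1.60% of the other cells. The myeloid genes *Lyz2* and *Il1b* were not seen more often in members of every library. *Lyz2* was seen in 2.21%, 0.760% and 0.505% of members and in 0.582%, 0.890% and 0.634% of the other cells. For *Il1b* the shares were 0.368%, 0.760% and 0.138% against 0.208%, 0.539% and 0.248%. Members also carried more UMIs per cell, for which reweighted counts are given below, and the part of these cells in the results was not tested beyond the counts without such cells. The summed level of 17 myeloid genes in members was 156.6, 25.5 and 23.9 CPM, against 42.1, 39.9 and 36.7 CPM in the other cells. The most abundant myeloid gene was *Cxcl2*, a neutrophil chemoattractant, and 484 of its 524 UMIs in the sIL-2 members (92.4%) came from 1 cell. Among myeloid genes, 1 (*Cd68*) was called higher and 1 (*S100a9*) lower of 15 tested, with a median of 0.26 that became -0.19 (1 higher, 2 lower of 6) without cells carrying 3 or more UMIs of the myeloid, melanoma, erythroid or B cell lists, and after reweighting 1 was called higher and 0 lower.

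The 9 melanoma genes summed to 89.96, 139.4 and 8.01 CPM in members, against 8.73, 8.32 and 7.67 CPM in the other cells. *Gpnmb* was the most abundant of them and was seen in 16.9%, 16.5% and 11.4% of members and 6.85%, 4.502% and 5.95% of the other cells. Cells with 3 or more melanoma UMIs were 5.88%, 2.53% and 0.643% of members and 0.845%, 0.413% and 0.372% of the other cells. Of 8 tested, 7 were called higher with a median of 3.32, yet *Dct*, an enzyme of melanin synthesis, drew 152 of 167 UMIs in the sIL-2 members (91.0%) and 258 of 292 UMIs in the IL-2/21-Trikine members (88.4%) from 1 cell each. The 7 calls became 8 without the sIL-2 + IL-21 library, 1 without sIL-2 and 0 without IL-2/21-Trikine. Members with 10 or more melanoma UMIs numbered 6, 6 and 2.

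The remaining marker lists had lower summed levels in members than in the other cells, except for erythroid genes with sIL-2 + IL-21. Erythroid genes summed to 1.03, 0.123 and 1.22 CPM in members and to 73.4, 0.166 and 0.173 CPM in the other cells, with 0 of 3 tested genes called and *Hbb-bs* the most abundant, and 3891 of the 3967 *Hbb-bs* UMIs in the other cells with sIL-2 lay in 1 cell. B cell genes summed to 14.0, 23.4 and 5.24 CPM in members against 20, 32.3 and 14.5 CPM, mostly as *Ighm*, which was called lower, while *Ms4a1* was at 0 in members. The list of other lymphoid and stromal genes summed to 36.3, 26.5 and 32.0 CPM against 50.9, 44.6 and 48.0 CPM, with *Pecam1* the most abundant and the only one of 6 called (lower, and 0 after reweighting), and with *Col3a1*, *Clec9a* and *Siglech* at 0 in members. Per cell, 14.34%, 5.82% and 9.46% of members carried 3 or more UMIs of this list, against 9.78%, 5.57% and 7.42% of the other cells, and for the B cell list the shares were 5.88%, 5.06% and 0.964% against 3.85%, 5.24% and 2.51%. Members with 3 or more UMIs of the myeloid, melanoma, erythroid or B cell lists made up 9.42% over all libraries, against 7.85% of the other cells, a pooled share in which sIL-2 + IL-21 supplied most members. The kept cells of 2 libraries shared 25 barcodes between the first and the second library, 17 between the first and the last and 30 between the second and the last, of which 1 belonged to members of both libraries of its pair.

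To ask which other genes separate members from the remaining pmel T cells, UMIs were summed per library over members and over other cells, without the score genes, and compared with edgeR's quasi-likelihood test with the library as a block. A gene is called at a Benjamini-Hochberg adjusted p under 0.05 with an absolute log2 fold change of at least 0.5. Of 15049 genes tested, 654 (4.35%) were called higher in members and 844 (5.61%) lower, and the median log2 fold change of all genes was 0.01. Against all other cells, the perforin gene, most granzyme genes and most listed genes of glycolysis and hypoxia were called higher in members. Most listed genes of cytokines and chemokines, of the interferon response and of stem-like T cells were called lower. With the other cells reweighted to the UMI bins of members, 454 genes were called higher and 495 lower, of which 395 and 443 were called in the same direction without reweighting. When the 10% were taken within each library, so that sIL-2 + IL-21 no longer supplied most members, 507 genes were called higher and 645 lower. The higher calls numbered 338 without sIL-2, 330 without IL-2/21-Trikine and 873 without sIL-2 + IL-21.

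Among the 12 named genes with higher levels, *Gzmg* and *Gzmf* of the granzyme cluster had the highest log2 fold changes. *Gzmg* stood at 179.7, 97.7 and 89.3 CPM in members against 27.6, 4.86 and 25.9 CPM in the other cells, a log2 fold change of 2.91 ± 0.37 (SE, edgeR adjusted p = 6.22e-04), and 1 cell held 52.8% of its UMIs in the IL-2/21-Trikine members. *Gzmf* stood at 2508, 1325 and 1757 CPM against 517.4, 171.6 and 986.7 CPM, a log2 fold change of 2.08 ± 0.31. For both genes, the 3 member values lay above all values of the other cells. *Gzmd* (1.97), *Gzme* (1.63) and *Gzmc* (1.47) were called higher as well, although the *Gzme* level of the IL-2/21-Trikine members (189.7 CPM) lay below that of the other cells with sIL-2 + IL-21 (211.3 CPM). These granzymes are near-identical neighbors, so the division of reads among them is uncertain.

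Of 17 cytotoxic genes tested, 8 were called higher and 2 lower, with a median log2 fold change of 0.36 that was 0.07 without sIL-2, 0.31 without IL-2/21-Trikine and 0.93 without sIL-2 + IL-21. *Prf1*, which encodes the pore-forming protein perforin, stood at 582.3, 281.7 and 447.7 CPM in members against 153.5, 78.3 and 181.6 CPM, a log2 fold change of 1.74 ± 0.11 (edgeR adjusted p = 2.33e-05). *Gzmb*, the main apoptosis-inducing granzyme, stood at 6896, 4697 and 7658 CPM against 3237, 2674 and 4104 CPM (log2 fold change 0.99). *Gzma* was called higher at 0.62, but its levels with sIL-2 + IL-21 were 4641 CPM in members and 4787 CPM in the other cells. The NK receptor genes *Klrd1* (-0.54) and *Klrk1* (-0.53) were the 2 genes called lower, and after reweighting 8 genes were called higher and 0 lower. The list's median log2 ratios within the libraries were 0.75, 0.42 and -0.18, so it was below 0 with sIL-2 + IL-21, and *Prf1*, *Gzmb* and the granzyme cluster were above the other cells in all 3 libraries.

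Genes outside the cytotoxic list also led the increases. *Gpr141*, an orphan receptor gene, stood at 95.9, 46.9 and 79.7 CPM in members against 18.3, 8.72 and 32.7 CPM (log2 fold change 2.05). *Basp1*, which encodes a membrane-associated signaling protein, stood at 85.0, 50.4 and 34.7 CPM against 21.0, 15.3 and 11.1 CPM (1.85). *Fcer1g*, the gene of an adaptor of activating receptors, stood at 545.6, 187.2 and 224.1 CPM against 152.4, 49.6 and 171.1 CPM (1.43), with a small increase in the sIL-2 + IL-21 library. This call was lost without the IL-2/21-Trikine library.

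**Figure D2:**
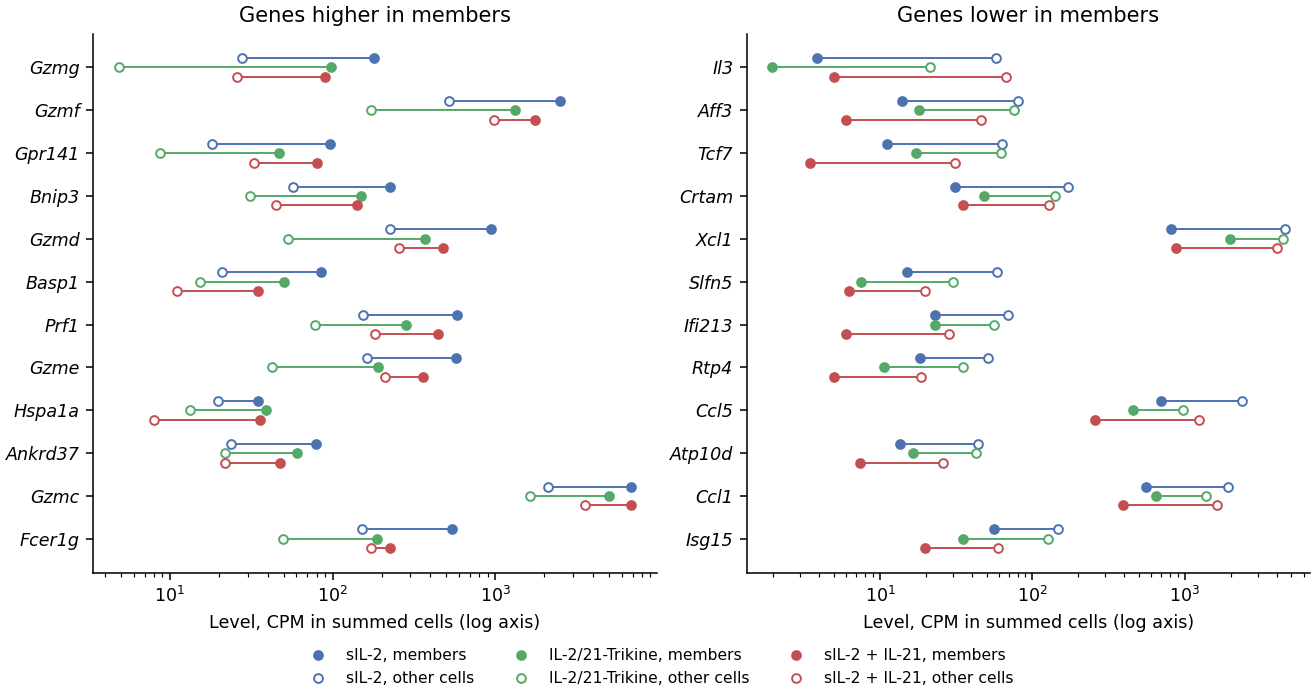
Levels of the 12 genes with the highest (left) and the 12 with the lowest (right) log2 fold change among called genes with a mean of at least 20 CPM and the same direction in all 3 libraries, in CPM of summed cells on a log axis, with filled points for members and open points for other cells of each library. Members lie above the other cells on the left and below them on the right in every library, which was a condition of the choice, and for *Fcer1g* with sIL-2 + IL-21 they stood at 224.1 against 171.1 CPM.

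Genes of glycolysis and hypoxia were higher in members almost as a group. Of 25 tested, 22 were called higher and 0 lower, with a median log2 fold change of 0.73, and the count was again 22 of 25 with the other cells reweighted to the UMI bins of members. *Bnip3*, a hypoxia-inducible gene of mitophagy, stood at 226.4, 148.7 and 140.5 CPM in members against 57.2, 30.9 and 45.0 CPM, a log2 fold change of 2.01 ± 0.11 (edgeR adjusted p = 1.96e-05). *Ankrd37*, another hypoxia-inducible gene, stood at 79.3, 60.5 and 47.5 CPM against 23.7, 21.8 and 21.9 CPM (1.49). For both genes the 3 member values lay above all values of the other cells.

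Along the glycolytic pathway, the glucose transporter genes *Slc2a3* (1.03) and *Slc2a1* (0.69), the enzyme genes *Aldoa* (0.87), *Tpi1* (0.96), *Gapdh* (0.82), *Pgk1* (0.73), *Eno1* (0.72), *Pkm* (0.74) and *Ldha* (0.62) and the lactate exporter gene *Slc16a3* (0.56) were all called higher. *Gapdh* stood at 2171, 1841 and 1881 CPM in members and 1210, 1088 and 1163 CPM in the other cells. The oxygen-responsive genes *Ero1a* (1.30), *Vegfa* (1.34), *Ndrg1* (1.001) and *Egln3* (0.99) were also called higher. *Hk2* (0.16), *Pdk1* (0.41) and *Bnip3l* (0.38) were not called.

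Stress-response lists changed in part. Of 12 heat shock genes, 5 were called higher and 0 lower, with a median of 0.39 (0.23 after reweighting). *Hspa1a*, the inducible HSP70 gene, stood at 34.6, 39.2 and 35.9 CPM in members against 19.7, 13.2 and 8.01 CPM, a log2 fold change of 1.61, with its near-identical neighbor *Hspa1b* at 1.14. Of 15 genes of the ATF4 and unfolded protein response, 5 were called higher (*Chac1*, *Trib3*, *Asns*, *Atf5*, *Ddit3*), which belong to the amino acid and integrated stress response, and 1 lower (*Dnajb9*, an endoplasmic reticulum chaperone), with 4 higher and 0 lower after reweighting and a median of 0.35 that became 0.08. Of 19 oxidative stress and NRF2 genes, the heme oxygenase gene *Hmox1* (1.02) and the ferritin gene *Ftl1* (0.90) were called higher and *Nfe2l2* lower (-0.56), with 2 higher and 0 lower after reweighting. The NRF2 targets *Nqo1*, *Srxn1* and *Gclc* were not called.

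Among genes that handle zinc, little besides a further metallothionein differed. *Mt3* stood at 6.79, 4.43 and 16.7 CPM in members against 2.05, 1.72 and 5.48 CPM, a log2 fold change of 1.64 (edgeR adjusted p = 5.98e-05). Of 18 tested, *Slc39a14*, a zinc importer gene, was the only other one called higher (0.51), and 0 were called lower (1 higher and 0 lower after reweighting). *Mtf1*, the zinc sensor gene, had a log2 fold change of 0.10, and *Slc30a1*, a zinc exporter gene known to be controlled by MTF1, had 0.24 (adjusted p = 0.162). The list median was 0.05, close to the 0.01 of all genes.

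IL-1 family receptors and glucocorticoid response genes gave 1 call upward between them. Of 14 genes of the IL-1 family receptor list, 0 were called higher and 1 lower, *Il1rap*, the shared accessory chain of IL-1 receptors (-0.83). *Il1r1*, which encodes the signaling IL-1 receptor, had at most 0.102 CPM in any sum and was not tested. Of 11 glucocorticoid response genes, *Ddit4* was called higher (0.72) and 5 were called lower (*Dusp1*, *Nr3c1*, *Per1*, *Zbtb16*, *Hsd11b1*), with 1 lower after reweighting to UMI bins. The glucocorticoid targets *Tsc22d3* (0.01) and *Fkbp5* (0.04) were not called.

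Most listed cytokine and chemokine genes were called lower in members. Of 23 tested, 16 were called lower and 2 higher, with a median log2 fold change of -0.92 (15 lower and 2 higher after reweighting). *Il3*, a hematopoietic growth factor gene of activated T cells, stood at 3.84, 1.97 and 4.97 CPM in members against 57.4, 21.2 and 66.9 CPM, a log2 fold change of -3.69 ± 0.11 (edgeR adjusted p = 5.12e-07). *Xcl1*, the ligand for dendritic cells with XCR1, stood at 808.5, 1976 and 868.6 CPM against 4506, 4434 and 3991 CPM (-1.90). *Ccl5* stood at 697.9, 454.1 and 259.1 CPM against 2380, 965.7 and 1230 CPM (-1.65). For each of these 3 genes, the 3 member values lay below all values of the other cells.

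*Ccl1* (-1.59), *Ccl3* (-1.26), *Ccl4* (-1.23), *Il2* (-2.64), *Ifng* (-0.92), *Csf2* (-0.91) and *Tnf* (-0.70) were called lower too. The genes called higher were *Spp1*, which encodes osteopontin (1.13), and *Osm* (0.85), a gene of the IL-6 family, and neither was called without the IL-2/21-Trikine library. Of 14 TNF superfamily genes, 6 were called lower, among them *Tnfsf14* (-1.92), *Tnfsf8* (-1.34) and *Cd27* (-0.86), and *Tnfrsf8*, which encodes CD30, was called higher (1.43) at 1.03, 1.11 and 3.59 CPM in members. The costimulatory receptor gene *Tnfrsf9* (-0.07) was not called.

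Most listed genes of stem-like and memory T cells were called lower in members. Of 14 tested, 9 were called lower and 0 higher, with a median log2 fold change of -0.85, and after reweighting 6 were called lower with a median of -0.43. *Tcf7*, which encodes TCF1, stood at 11.2, 17.2 and 3.48 CPM in members against 63.5, 62.1 and 31.2 CPM, a log2 fold change of -2.49 ± 0.20 (edgeR adjusted p = 5.80e-05). *Ccr7* (-1.27), *Slamf6* (-1.61), *Bach2* (-1.23), *Cxcr3* (-1.34) and *Satb1* (-0.75) were called lower, and *Il7r* (-0.29), *Klf2* (0.00) and *Lef1* (0.04) were not called.

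Interferon-stimulated genes had a median log2 fold change of -1.46, with 10 of 12 called lower and 0 higher. After reweighting 8 were called lower with a median of -0.91, and the median of the cytokine and chemokine list was then -0.91 as well. *Ifit1* stood at 6.92, 2.46 and 1.69 CPM in members against 33.3, 17.6 and 8.05 CPM (-2.32), and *Isg15* at 55.7, 35.1 and 19.8 CPM against 147.2, 126.1 and 59.2 CPM (-1.55). In both cell groups these genes were lowest with sIL-2 + IL-21, the library that held most members. The interferon-inducible genes *Slfn5* (-1.78), *Ifi213* (-1.69) and *Rtp4* (-1.66), which were on no list, were among the 12 named genes with lower levels, chosen among called genes with a mean of at least 20 CPM and the same direction in all 3 libraries, as were *Aff3* (-2.51), *Crtam* (-1.90) and the flippase gene *Atp10d* (-1.60).

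Genes of activation and exhaustion split. Of 14 inhibitory receptor and exhaustion genes, 3 were called higher, namely *Havcr2*, which encodes TIM-3 (0.99), *Cd244a* (1.11) and *Entpd1*, which encodes CD39 (0.83). Lower were *Tox* (-1.48), *Cd160* (-1.11), *Cd200r1* (-0.57) and the *Nr4a* genes of T cell receptor signaling, *Nr4a1* (-1.31), *Nr4a2* (-0.96) and *Nr4a3* (-1.10), with 3 higher and 5 lower in the list after reweighting. *Pdcd1* (0.48), *Lag3* (-0.34) and *Ctla4* (0.04) were not called. *Havcr2* stood at 283.6, 129.9 and 186.2 CPM in members against 139.5, 54.7 and 124.9 CPM, while *Tox* stood at 13.8, 20.3 and 4.32 CPM against 34.1, 46.8 and 17.5 CPM.

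Among transcription factors of the BATF, IRF4 and AP-1 list, 8 of 17 were called lower, among them *Fos* (-1.21), *Irf4* (-0.76) and *Junb* (-0.69), and *Batf3* was the only one called higher (5 lower and 2 higher after reweighting). *Batf3* stood at 5.25, 6.03 and 37.1 CPM in members against 2.31, 2.10 and 12.04 CPM, a log2 fold change of 1.56, and was highest with sIL-2 + IL-21 in both cell groups. *Batf*, its close relative, was not called (0.14).

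Targets of the cytokines used in the treatments split in the same way. Of 18 IL-2 and STAT5 response genes, *Prf1*, *Gzmb* and *Osm* were called higher, and *Myc* (-1.04), *Pim2* (-0.72), *Stat5a* (-0.64) and *Ccnd2* (-0.54) lower (3 higher and 3 lower after reweighting), while *Il2ra* (-0.32), *Cish* (-0.33) and *Socs1* (-0.03) were not called. Of 12 IL-21 and STAT3 response genes, *Prdm1*, which encodes the terminal differentiation factor BLIMP1, was called higher (1.19) and *Il10* (-2.01), *Maf* (-1.14) and the receptor gene *Il21r* (-1.02) lower. *Il21r* stood at 66.6, 60.3 and 70.8 CPM in members against 161.4, 130.0 and 130.1 CPM. *Stat3* (-0.24) and *Socs3* (-0.40) were not called.

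The median summed level of cell cycle genes per cell was higher in members than in the other cells in every library. The median cell had 663.9, 887.8 and 1763 CPM of summed S phase genes in members and 486.1, 659.3 and 669.1 CPM in the other cells, and 275.5, 326.8 and 938.6 CPM of G2/M genes against 110.9, 174.1 and 269.6 CPM. When the 30% most cycling cells of the pool were left out and the rest ranked again, 44.43% of the members were still chosen. All other members were themselves among the cells left out, so most members belonged to the most cycling 30% of the pool. In the summed counts few of these genes were called. Of 18 S phase genes, 2 were called higher, and of 18 G2/M genes, 1 was called higher, with medians of 0.21 and 0.36 that turned to -0.18 (0 calls) and -0.25 (0 higher, 1 lower) once the other cells were reweighted to the UMI bins of members. The G2/M count became 9 without cells with markers of other types and 7 without the sIL-2 + IL-21 library. Of 22 genes of tissue residency and migration, *Vim* (0.84), *Lgals3* (0.77) and *Lgals1* (0.59), which encode a filament protein and galectins, were called higher and *Cd69* (-0.58), *Itgae* (-1.43) and *Ccr8* (-1.04) lower (3 higher and 1 lower after reweighting). Of 3 nuclear-retained RNAs tested, 0 were called, with *Malat1* at -0.44 and *Neat1* at 0.50, and after reweighting 1 was called higher and 1 lower.

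**Figure D3:**
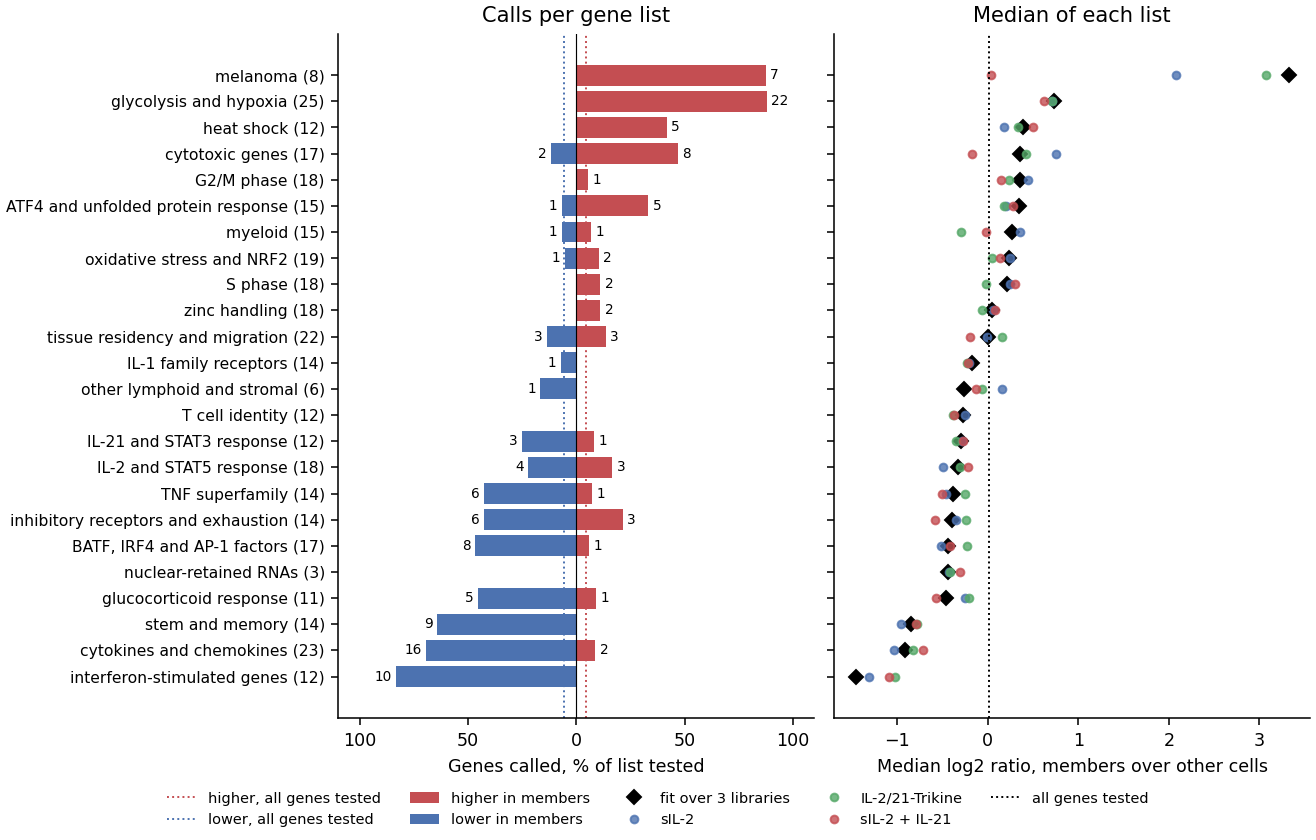
Left, percent of the tested genes of each list (number tested in brackets) called higher or lower in members, with the count beside each bar and the percent of all tested genes as dotted lines. Right, the median log2 ratio of each list in the fit over 3 libraries (diamonds) and within each library (circles), for the 24 lists with at least 3 tested genes other than the erythroid list. Glycolysis and hypoxia genes had 22 of 25 called higher, interferon-stimulated genes 10 of 12 called lower, and the melanoma median of sIL-2 + IL-21 lies near 0.

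The gene lists followed the score beyond the division into members and other cells. The top 1% of cells by score held only 12, 24 and 249 cells of the libraries. Summed glycolysis and hypoxia genes were 12041, 10203 and 10537 CPM in the top 1% of cells by score, 6693, 5956 and 5734 CPM in cells ranked from 10 to 20%, and 4801, 4114 and 4157 CPM in the lower 50%. Cytokines and chemokines ran the other way, from 1906, 2465 and 2627 CPM in the top 1% to 17932, 12673 and 19849 CPM in the lower 50%. Cytotoxic genes were not highest in the top 1% of every library, with 25127, 20106 and 24922 CPM there and 31707, 18724 and 27100 CPM in cells ranked from 5 to 10%. Median UMIs per cell were 31532, 21454 and 23529 in the top 1% and 11445, 10323 and 9194 in the lower 50%, and their part in these gradients was not tested.

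**Figure D4:**
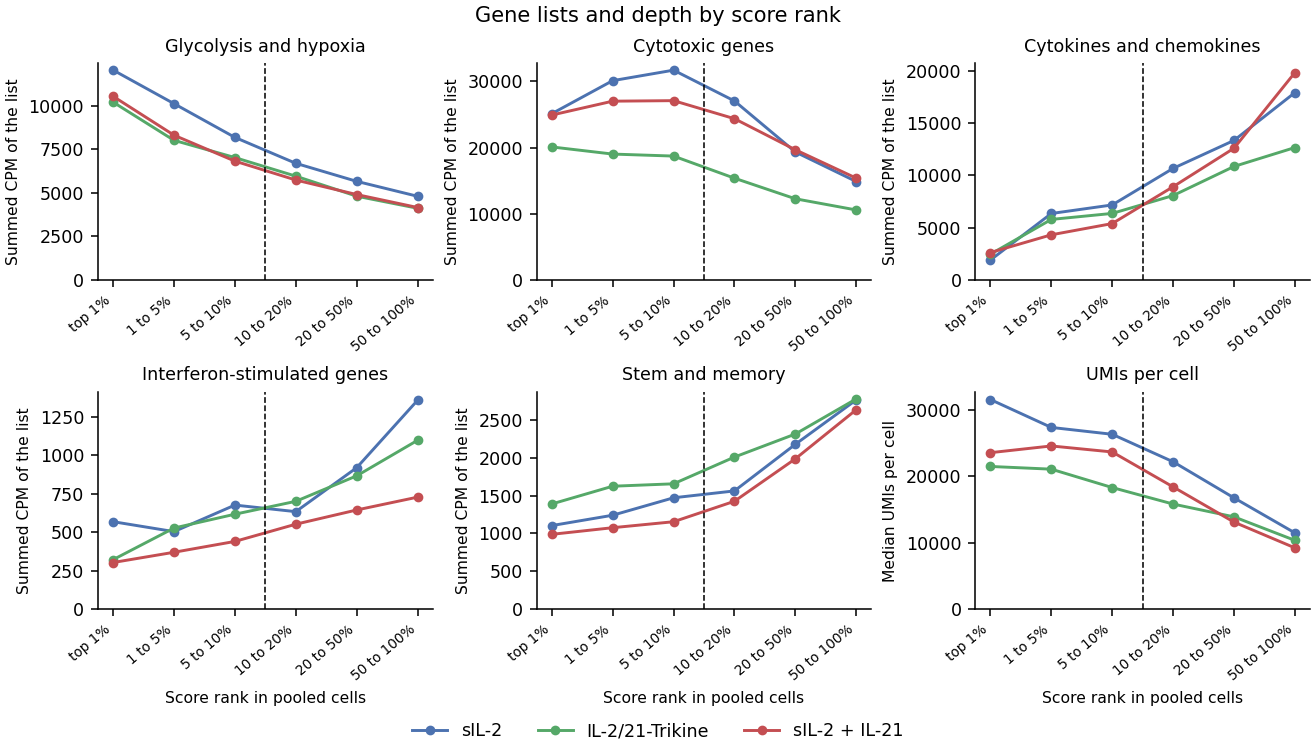
Summed CPM of 5 gene lists and median UMIs per cell, by rank of the score in the pooled cells, with a line for each library and the member limit dashed. From the top 1% to the lower 50%, glycolysis and hypoxia genes are lower and cytokines, interferon-stimulated genes and stem and memory genes higher in every library, and UMIs per cell are lower as well. The top 1% holds 12, 24 and 249 cells of the libraries.

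Gene by gene over single cells of all libraries pooled, the genes with the highest correlation with the summed *Mt1* and *Mt2* share were *Gzmc*, *Gzmb*, *Actg1*, *Vim* and *Lgals1*. Over 28452 cells thinned to 2000 UMIs, their Spearman correlations were 0.37, 0.29, 0.26, 0.26 and 0.25 among 4654 genes seen in at least 5% of cells. Libraries differed in score, and within libraries the values were 0.27, 0.18 and 0.42 for *Gzmc*, 0.19, 0.13 and 0.37 for *Gzmb*, 0.16, 0.12 and 0.31 for *Actg1*, 0.16, 0.10 and 0.28 for *Vim* and 0.16, 0.09 and 0.26 for *Lgals1*. Cells of a library share its reagents and depth, so these values are descriptions.

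Members overlapped a class of granzyme-rich cells but were not the same cells. The granzyme-rich class held the 10% of pooled cells with the highest UMI share of *Gzmc*, *Gzmd*, *Gzme*, *Gzmf* and *Gzmg*, and 36.1% of members belonged to it, against 7.10% of the other cells. By library, 38.2%, 22.03% and 38.4% of members were in that class, against 6.47%, 3.44% and 13.3% of the other cells. A class chosen in the same way by *Penk*, *Cd81* and *Cd83* held 2.21%, 4.81% and 10.42% of members and 7.23%, 9.72% and 13.63% of the other cells. In every library, the share in the granzyme-rich class was higher in members than in the other cells, and the share in the *Penk* class was lower.

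Members were compared with the granzyme-rich class after leaving out cells in both classes and the score genes of both. Of 11340 genes tested, 231 (2.04%) were called higher in members and 349 (3.08%) lower by edgeR's quasi-likelihood test. DESeq2 called 125 higher and 201 lower, and without the sIL-2 + IL-21 library 384 were called higher and 350 lower. Glycolysis and hypoxia genes were still higher, 15 of 25 with 0 lower and a median of 0.52, as were heat shock genes, 8 of 12 with 0 lower. Stem and memory genes, lower against all other cells, were here called higher for 6 of 14 and lower for 0. Cytokine and chemokine genes had a median of 0.06 (3 higher and 5 lower of 20), and of 12 cytotoxic genes outside the class score 0 were called higher and 4 lower. *Hspa1a* (1.95), *Hspa1b* (1.44), the chemokine receptor gene *Cxcr4* (1.56) and *H2-Q5* (1.43) led the increases, together with *Cxcl2*, whose level in the sIL-2 members came mainly from 1 cell.

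Lower in members than in granzyme-rich cells were *Fcer1g*, at 265.3, 93.0 and 108.8 CPM against 616.2, 274.2 and 480.6 CPM (-1.69), *Spp1* (-1.41), *Ccl1* (-1.38) and the adhesion gene *Dscam* (-1.70). These members lack the cells that belong to both classes, so their levels are not those of all members given above. Against the *Penk*, *Cd81* and *Cd83* class, 618 of 11791 genes (5.24%) were called higher and 850 (7.21%) lower. Without the IL-2/21-Trikine library, 275 were called higher and 523 lower. *Gzmg* (4.09), *Gzmf* (2.87), *Gpr141* (2.75), *Gzmd* (2.64) and *Bnip3* (2.498) led the increases and *Il3* (-3.72), *Ccl1* (-2.80), *Crtam* (-2.74), *Il2* (-2.64) and *Aff3* (-2.64) the decreases, and 23 of 25 glycolysis and hypoxia genes were called higher.

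Members of different libraries were compared without a test, since each treatment had 1 library. The members also differed between libraries in median score (1876, 1795 and 2522 CPM) and in UMIs per cell (27100, 18909 and 24062). The part of these differences in the ratios was not tested. A gene counted as past the fold at an absolute log2 ratio of at least 1 with at least 50 CPM in either library, and intervals are exact and cover counting error only. For IL-2/21-Trikine over sIL-2, 2 of 3011 genes (0.0664%) were past the fold upward and 29 (0.963%) downward. At a minimum of 20 CPM these counts were 12 and 74, and at 100 CPM they were 2 and 12. Counts of the other pairs also rose at 20 CPM. *Ccr7*, a lymph node homing receptor gene, stood at 265.0 CPM in the IL-2/21-Trikine members and 93.9 CPM in the sIL-2 members (log2 ratio 1.496, 1.375 to 1.62), and its log2 ratio in the other cells was 0.63. *Xcl1* stood at 1976 against 808.5 CPM (1.29, 1.25 to 1.33), while its ratio in the other cells was -0.02.

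Downward, *Gzmk* stood at 5.78 CPM in the IL-2/21-Trikine members and 62.3 CPM in the sIL-2 members (-3.43, -3.89 to -3.00) and was low in the other cells too (-2.66). *Cxcl2* (-2.72, with 92.4% of its sIL-2 UMIs in 1 cell) and *Ltb4r1*, a leukotriene receptor gene (-1.66), followed. *Gzma* (-1.62) and *Gzme* (-1.60) came next, with ratios in the other cells of -1.85 and -1.93. Of the 31 genes past the fold in members, 17 were past it in the other cells too, so a difference in members was often shared by the rest of the library.

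For sIL-2 + IL-21 over sIL-2, 13 of 3071 genes (0.423%) were past the fold upward and 28 (0.912%) downward, of which 7 were past it in the other cells too. Upward lay *Fabp5*, a fatty acid carrier gene, at 295.9 against 122.4 CPM (1.27, 1.18 to 1.37), the sterol synthesis gene *Idi1* (1.15), *Tmem97* (1.36), *Tnfsf11* (1.22) and the nucleolar gene *Nolc1* (1.12). Their log2 ratios in the other cells were 1.12, 1.08, 0.82, 0.87 and -0.05. Downward lay *Gzmk*, at 9.41 against 62.3 CPM (-2.73), *Il10ra* (-1.80), *Itga1* (-1.71) and *Trgc4* (-2.07), with ratios in the other cells of -0.69, -1.11, -1.06 and -1.80. Of the 41 genes past the fold, 39 had the same sign in the other cells. *Cxcl2* had the lowest ratio (-5.59), with most of its sIL-2 UMIs in 1 cell.

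For IL-2/21-Trikine over sIL-2 + IL-21, 15 of 2936 genes (0.511%) were past the fold upward and 7 (0.238%) downward, of which 5 were past it in the other cells too. The interferon-inducible genes *Ifi214* (2.12) and *Ifi27l2a* (1.64), *Calhm6* (1.81), *Tnfsf8* (1.499) and *Klf2* (1.40), a gene of T cell quiescence, led upward, and *Csf2* (-1.49), *Ltb4r1* (-1.40), *Prdx4* (-1.26), *Lmna* (-1.24) and *Klra5* (-1.18) downward. In the other cells, the upward genes had log2 ratios of 1.17, 0.97, 0.70, 0.72 and 0.37 and the downward genes of -0.97, -1.60, -0.84, -1.32 and -2.12, so that *Ltb4r1*, *Lmna* and *Klra5* differed more there than in members. All 22 genes past the fold had the same sign in the other cells. *Klf2* stood at 143.2 CPM in the IL-2/21-Trikine members and 54.2 CPM in the sIL-2 + IL-21 members.

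The genes whose ratios differed most between members and other cells in this pair were chosen for that difference, and they are given as a description. Members of both libraries passed the same score limit, but the other cells differed in median score, at 27.4 CPM with IL-2/21-Trikine and 194.2 CPM with sIL-2 + IL-21. The part of this difference in the ratios below was not tested. The *Gzmf* level was 1325 CPM in the IL-2/21-Trikine members and 1757 CPM in the sIL-2 + IL-21 members (-0.41), against 171.6 and 986.7 CPM in the other cells (-2.52). For *Gzmd* the log2 ratios were -0.37 in members and -2.27 in the other cells, and for *Fcer1g* -0.26 and -1.79. For *Gzmg* they were 0.13 and -2.41, but 1 cell held 419 of the 794 *Gzmg* UMIs in the IL-2/21-Trikine members, and without the cell with the most *Gzmg* UMIs in each library the ratios were -0.52 and -2.94. *Gzmb* did not share this pattern, at 4697 against 7658 CPM in members and 2674 against 4104 CPM in the other cells. These differences have no test, because each library is a single sample.

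**Figure D5:**
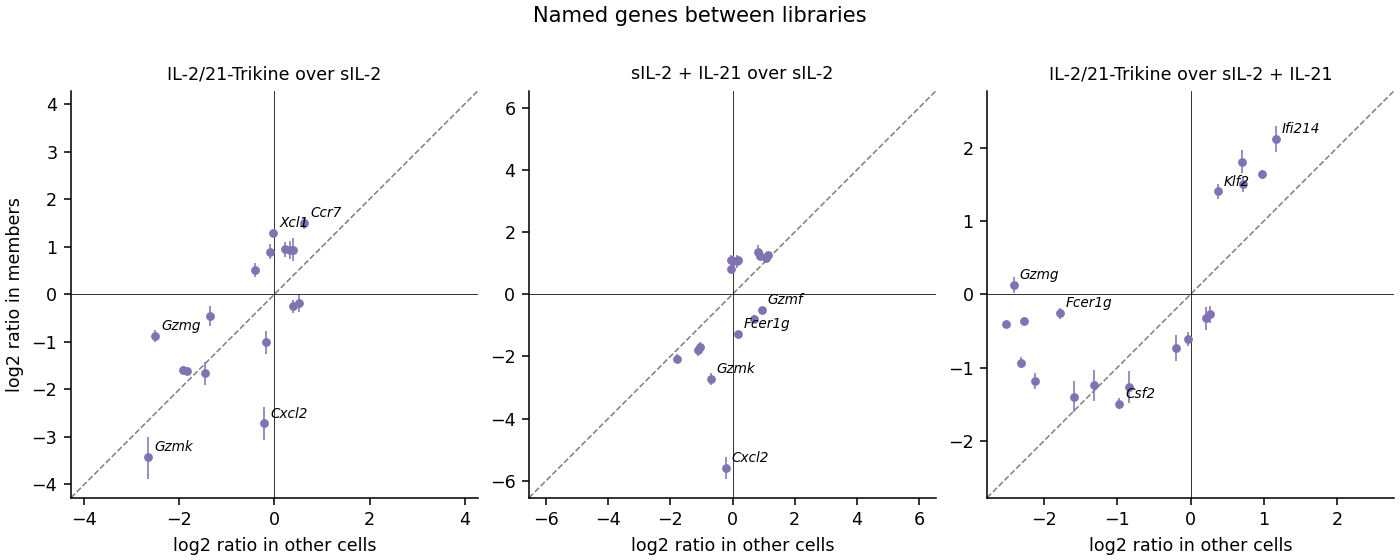
For each pair of libraries, the log2 ratio of named genes in members (with exact 95% counting intervals) against the log2 ratio of the same genes in the other cells, with equal ratios on the dashed line. In the comparison of IL-2/21-Trikine with sIL-2 + IL-21, *Fcer1g* lies at -0.26 in members and at -1.79 in the other cells, and *Gzmg* lies at 0.13 in members with 52.8% of its IL-2/21-Trikine UMIs in 1 cell.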

How the data were processed

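The authors aligned and counted the droplet-based 3′ libraries with Cell Ranger, and deposited UMI counts per gene and cell for each library. The methods name GRCm39 as reference while the labels name mm10, so promoter coordinates are those of RefSeq on GRCm38.p6 and genes were joined by symbol or identifier only. The deposited matrices held 31026 cells, of which 28452 were kept with 2000 to 120000 UMIs and at most 20% mitochondrial UMIs (7494, 11524 and 9434 in the libraries as ordered above, with 129886211, 165051207 and 167689133 UMIs in all and medians of 13358, 11600 and 14556 per cell). The limit on UMIs is stricter than that of the study.

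The members and gene lists were chosen with earlier results of these data known. Counts were summed per library over members and over other cells, the 3 score genes were removed, and edgeR 4.0.16 in R 4.3.3 was used for a quasi-likelihood test with TMM normalization, filterByExpr and the library as a block. The p-values thus measure how the difference between members and other cells varied over 3 libraries of different treatments, with dispersion estimates shared among genes. They carry no spread between mice or between replicate libraries of a treatment. Adjusted p-values are Benjamini-Hochberg over all genes tested. Levels are CPM of these sums without the score genes, except for the score genes themselves, and per-library log2 ratios carry a pseudocount of 1 CPM. Treatments had 1 library each and were compared without a test, with exact 95% intervals for counting error only. The named genes were the 12 called genes with the highest and the 12 with the lowest log2 fold change among those with a mean of at least 20 CPM and the same direction in all 3 libraries, without receptor segments and unnamed gene models, and with 5 in each direction for comparisons with similar classes and between libraries, and the rest come from the gene lists. A few genes that meet these rules are not reported here. Scrublet, run to look for doublets, marked so few cells by its own threshold (0.0667%, 0.00868% and 0.0106%) that its calls were not relied on. Whether that threshold missed doublets was not tested, and doublets were not removed. The share of members among the 5% of cells with the highest doublet score was examined instead (5.88%, 4.56% and 6.11% of members). DESeq2 1.42.0, other limits on cells, other definitions of members and leaving out each library were tried as alternatives, and the fits were tested on simulated data.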

Additional observations from a re-analysis of the deposited data

Results flagged for a closer look

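Cells with at least 500 and under 2000 UMIs were outside the main comparisons and entered only the alternative with at least 500 UMIs, yet some reached the score of the members. They were 10 of 266 cells with sIL-2 (3.76%, exact 95% interval 1.82 to 6.81%), 98 of 1775 with IL-2/21-Trikine (5.52%, 4.51 to 6.69%) and 55 of 364 with sIL-2 + IL-21 (15.1%, 11.6 to 19.2%). In the members of sIL-2 + IL-21 over those of sIL-2, *Dscam* had a log2 ratio of -0.80 and *Gzmf* of -0.51, whereas in the other cells the ratios had the opposite sign, 0.69 and 0.93. The difference between members and other cells was not tested, since each treatment had 1 library.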

How the results depend on the processing

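Genes called higher in members numbered 1091 without the most cycling cells, 1645 at an adjusted p alone and 303 at a log2 fold change of at least 1, and 330 to 873 with each library left out (338 without sIL-2, 330 without IL-2/21-Trikine, 873 without sIL-2 + IL-21, of which 326, 297 and 513 were shared with all libraries in). Genes called lower numbered 495 with reweighted other cells, 1666 at an adjusted p alone, 275 at a log2 fold change of at least 1 and 720 to 786 with a library left out. Ranking within each library gave 507 and 645 calls (428 and 593 shared), and DESeq2 600 and 768. The share of members with sIL-2 + IL-21 over sIL-2 was 8.998 in the top 5%, 3.86 in the top 20%, 5.31 with thinned counts, 7.74 without cells with markers of other types and 4.02 without cycling cells. Over IL-2/21-Trikine it was 10.2, 4.22, 6.04 with at least 500 UMIs and 4.07 without cycling cells, and IL-2/21-Trikine over sIL-2 was 1.11 without cells with markers of other types. Against the *Penk* class, leaving out a library gave 275 to 746 higher and 523 to 1014 lower. Against granzyme-rich cells it gave 188 to 384 and 324 to 384, and DESeq2 gave 125 and 201. Between libraries, a minimum of 20 CPM gave 12 and 74 genes (IL-2/21-Trikine over sIL-2), 33 and 83 (sIL-2 + IL-21 over sIL-2) and 35 and 26 (IL-2/21-Trikine over sIL-2 + IL-21). A minimum of 100 CPM gave 12 and 10 lower in the first pairs and 7 higher and 4 lower in the last, and leaving out cells with markers of other types gave 4 higher in the first. The melanoma list turned to -0.32 without those cells, which were removed for carrying its UMIs. Of the repeated list medians, 408 moved by less than the spread between libraries, 84 by more and 1 was counted as reversed. Changes of sign were more frequent than that count. The S phase, G2/M, myeloid, melanoma and erythroid medians were among those that changed sign in some alternative. Among the named genes, chosen for one direction in all libraries, *Fcer1g* lost its call without IL-2/21-Trikine. The causes of these changes were not tested. Members and other cells were compared with the library as a block throughout. Between treatments, no paired analysis was possible because each had a single library. Summed *Mt1* and *Mt2* in cells chosen by *Il1r2* had a mean log2 ratio of 0.669 with thinned counts, 1.46 in the top 20% and 1.44 within libraries, where some chosen cells carried no *Il1r2* UMI. In an alternative added after seeing the data, the *Gzmg* ratio in members of IL-2/21-Trikine over sIL-2 + IL-21 was -0.52 without the cell with the most *Gzmg* UMIs in each library.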
